A study of Mus musculus with 6 samples.

Results

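Small nucleolar RNAs (snoRNAs) and small Cajal body RNAs were examined in mouse bone marrow stromal cells that lacked or carried the microRNA gene miR-188, cultured in adipogenic medium. Genes were taken as members where the updated symbol began with Snord, Snora or Scarna and a probe set of the array carried that symbol alone. This gave 54 of the 19938 genes measured, of which 31 were C/D box genes (Snord), 20 were H/ACA box genes (Snora) and 3 were Cajal body genes (Scarna). Measured levels entered only where a gene had more than 1 probe set, as 6 genes did: its probe set was chosen by the highest mean over all 6 arrays, KO and WT together. The family was taken up with earlier results of these arrays known, so its counts and medians are a description.

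The series holds 3 arrays of stromal cells from miR-188 knockout mice (KO) and 3 arrays of stromal cells from wild-type mice (WT), all on a C57BL/6 background at 6 months of age. Cells of both genotypes received an adipogenic cocktail: insulin at 5 µg/ml, the glucocorticoid dexamethasone at 1 µM and the phosphodiesterase inhibitor 3-isobutyl-1-methylxanthine at 0.5 mM, in α-MEM containing 10% serum from fetal calves. Each array was a single-colour Affymetrix array, and values are log2 expression levels per probe set that the authors made. The replicates are labelled as biological, and whether they were separate animals is not stated; the tests therefore reflect the spread among these cultures. How the deletion was built, how far it reaches, how long induction lasted and which arrays were hybridised together could not be learned from the labels.

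SnoRNAs are short nuclear RNAs that guide chemical modification of other RNAs by base pairing. The C/D box class carries the methyltransferase fibrillarin to sites of ribose methylation, and the H/ACA box class carries the enzyme dyskerin to sites of pseudouridylation, mainly in ribosomal RNA. Cajal body RNAs belong to the same families but guide the modification of spliceosomal RNAs. In mammals most of these RNAs have no promoter of their own: they are cut out of introns of a host gene, which is often a ribosomal protein gene or a long noncoding RNA of the Snhg group. A few snoRNAs, among them Snord118 (U8), Snord22 and the Snora73 RNAs, serve the cleavage of the ribosomal RNA precursor rather than its modification.

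The cells were checked against their label. Of 12 measured markers of marrow stroma, 11 lay above a background level of 6.83, below which 95% of 1027 olfactory receptor genes lay on average over the arrays. Of these stroma markers 2 rose and 5 fell, and their summed linear level was 14447 to 15053 in KO and 16386 to 16589 in WT. Of 10 macrophage markers, 3 lay above it. Among these was Cd68, which other cells also use and which fell by 0.19 on the log2 scale (adjusted p = 0.0153, limma). Adgre1, Csf1r and Ptprc lay below it, but whether macrophages were present was not tested. The summed linear level of the macrophage list was 2557 to 2589 in KO and 2794 to 2835 in WT. That of 6 adipocyte markers was 1889 to 2016 in KO and 2227 to 2370 in WT, with the hormone gene Adipoq below background. Only 1 of these 6 was called, Fabp4, which fell by 0.33 (adjusted p = 0.0186, limma). Sums were higher in KO for 4 osteoclast markers (1274 to 1325 in KO, 1192 to 1230 in WT) and for 4 B cell markers (936 to 975 in KO, 845 to 885 in WT), of which 1 osteoclast and 0 B cell markers rose. A sum follows the brightest genes of its list. The median differences were -0.045 for stroma, 0.036 for macrophage, -0.037 for adipocyte, -0.032 for osteoclast and 0.028 for B cell markers. Outside these lists, the proliferation marker Mki67 averaged 8.85 in KO and 9.62 in WT, a fall of 0.77 (adjusted p = 0.00305, limma). Whether the shifts in sums or the fall of Mki67 bear on the small RNAs was not tested. In bulk RNA, fewer cells of a type and less RNA per cell cannot be told apart. The Mir188 probe set differed by -0.10 (adjusted p = 0.348, limma), and whether it reads the deleted part is not known, so it does not check the labels.

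Small nucleolar and Cajal body RNAs with these symbols were lower in KO than in WT in most cases. The KO mean lay below the WT mean in 52 of 54 genes, while 47.6% of all genes had a difference below 0. The median difference, KO minus WT, was -0.27 on the log2 scale, beside 0.00465 over all genes. By limma across all genes, with Benjamini-Hochberg adjustment and a threshold of 0.05, 15 of the 54 genes fell, 0 rose and 39 did not pass; without adjustment, 37 genes had a p under 0.05. Over all genes 3.97% were called lower and 3.34% higher. All 3 KO values lay below all 3 WT values in 34 of the 54 genes, against 13.5% of all genes, and all 3 lay above in 2 of them, against 11.4%. Genes of this kind made up 13 of the 100 largest falls and 0 of the 100 largest rises, which is 24.1% of the small RNA genes; they are 0.271% of all genes.

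**Figure D1:**
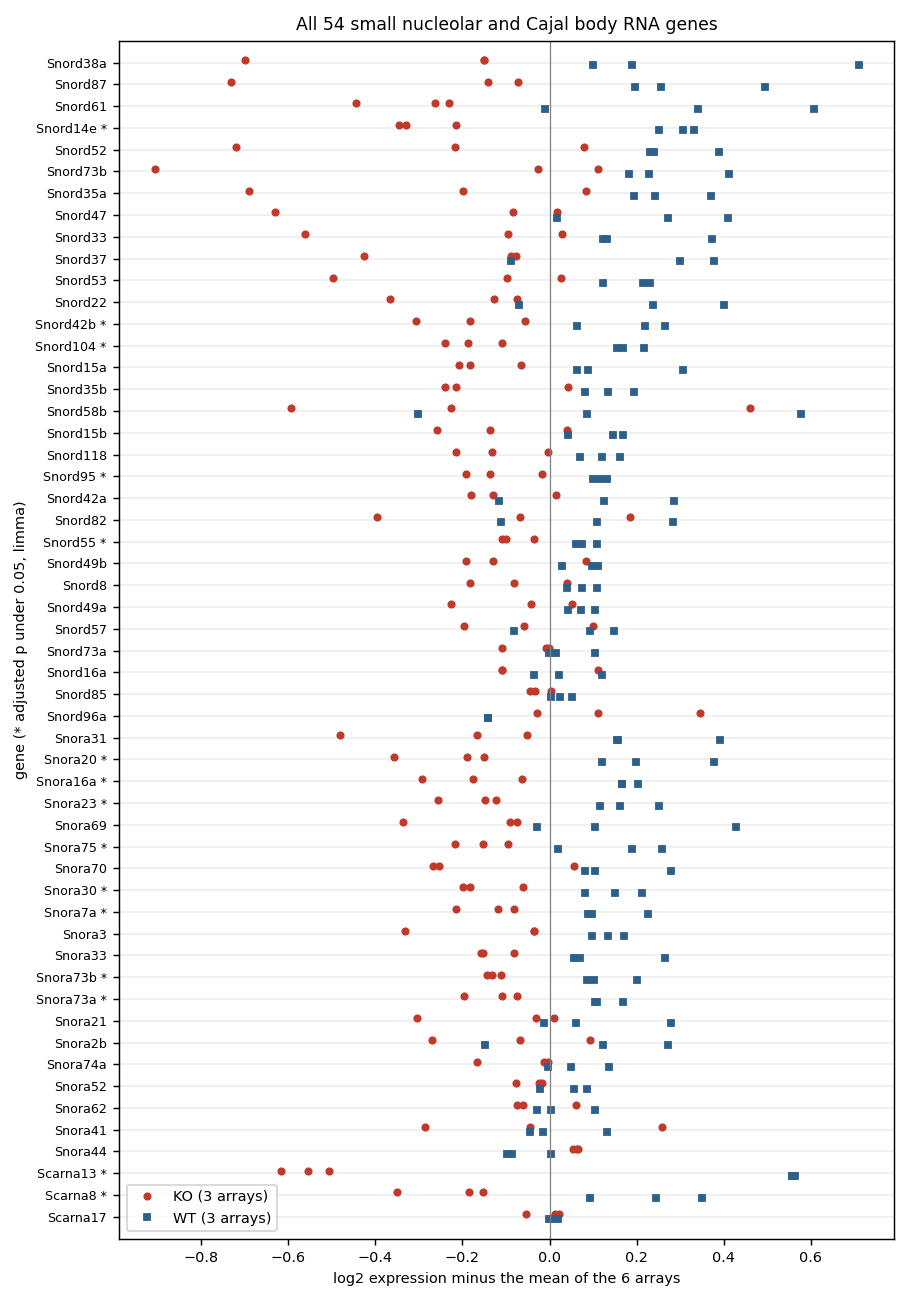
Level of each of the 54 genes on each array, as log2 expression minus the mean of the 6 arrays, with 3 KO arrays (circles, upper) and 3 WT arrays (squares, lower) per gene and the classes C/D, H/ACA and Cajal body from top to bottom. KO values lie to the left of WT values in most rows, and only Snord96a and Snora44 have all KO values to the right.

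Of the 3 Cajal body genes, 2 fell and 1 did not differ beyond its spread. Scarna13, which guides modification of spliceosomal RNA, had levels of 10.16, 10.10 and 10.21 on the KO arrays, against 11.28, 11.27 and 11.27 on the WT arrays. The KO arrays lay more than a whole log2 unit below the WT arrays, and the groups did not overlap. The difference was -1.12 (SE 0.04, adjusted p = 0.000216, limma), which is 2.17-fold lower in KO, the second largest fall of all genes after that of Pparg, the master regulator of adipocytes. Scarna8 had 7.65, 7.84 and 7.81 in KO, against 8.35, 8.09 and 8.24 in WT. Its groups did not overlap either, and it fell by 0.46 (SE 0.08, adjusted p = 0.0202, limma). Scarna17 had 11.82, 11.76 and 11.83 in KO, against 11.83, 11.81 and 11.81 in WT. Its KO and WT values overlapped, with a difference of -0.01 (SE 0.03, adjusted p = 0.883, limma), whose sign turned after quantile normalization again (0.04), after cyclic loess (0.03) and without KO replicate 2 (0.01).

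**Figure D2:**
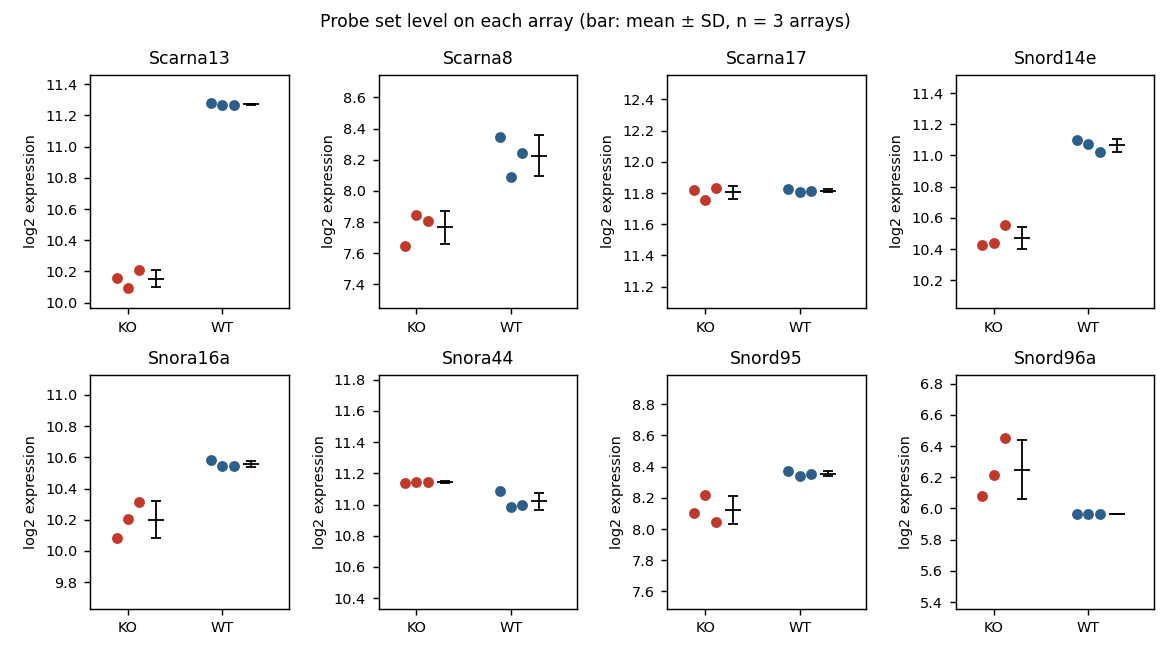
Log2 expression of 8 genes on each array, with 3 KO arrays left, 3 WT arrays right and mean ± SD (n = 3 arrays) beside each group; every panel spans 1.5 log2 units. Scarna13, Scarna8, Snord14e, Snora16a and Snord95 are lower in KO on every array, Scarna17 overlaps, and Snora44 and Snord96a lie higher in KO.

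In the C/D class 5 of 31 genes fell and 26 missed the threshold; none rose. The median difference was -0.27, and 30 of 31 differences were below 0. The largest of the 5 falls was that of Snord14e, a copy of the U14 family that acts in the processing and methylation of the small ribosomal subunit RNA. It had 10.42, 10.44 and 10.55 in KO, against 11.10, 11.07 and 11.02 in WT. Its difference was -0.59 (SE 0.05, adjusted p = 0.00263, limma), or 1.51-fold lower in KO, and the groups lay far apart relative to their spread. Snord104, a methylation guide, had 10.62, 10.57 and 10.70 in KO, against 11.02, 10.96 and 10.98 in WT, a difference of -0.36 (adjusted p = 0.00731, limma). The remaining 3 are methylation guides that lie in ribosomal protein genes or in Rack1, a gene for a protein of the small ribosomal subunit. Snord42b had 10.37, 10.61 and 10.49 in KO, against 10.94, 10.73 and 10.89 in WT (difference -0.36, adjusted p = 0.0404, limma). Snord95 had 8.10, 8.22 and 8.05 in KO, against 8.37, 8.34 and 8.35 in WT (difference -0.23, adjusted p = 0.0404, limma). Snord55 had 10.18, 10.12 and 10.11 in KO, against 10.28, 10.32 and 10.29 in WT, the smallest of the 5 falls at -0.16 (adjusted p = 0.0412, limma). None of the 5 genes had overlapping groups.

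Larger differences than most of these were measured in C/D genes that did not pass, with wide spread between arrays. Snord38a had 4.02, 4.57 and 4.57 in KO, against 5.43, 4.82 and 4.91 in WT. Its difference of -0.67 carried an SE of 0.21 (adjusted p = 0.116, limma), and its level lay below background. Snord87 had 6.23, 6.82 and 6.89 in KO, against 7.46, 7.22 and 7.16 in WT (difference -0.63, SE 0.18, adjusted p = 0.0917, limma). Snord61 had 3.87, 4.08 and 4.05 in KO, against 4.92, 4.30 and 4.65 in WT (difference -0.63, SE 0.15, adjusted p = 0.0554, limma). In all 3 genes every KO array lay below every WT array, though the level of Snord61, like that of Snord38a, lay below background.

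The C/D RNAs of the ribosomal protein gene Rpl13a are known in rodent cells for a part in lipotoxic stress, and 2 of them were measured alone. Snord33 had 8.39, 8.86 and 8.98 in KO, against 9.32, 9.07 and 9.08 in WT, a difference of -0.42 (SE 0.15, adjusted p = 0.185, limma). Snord35a had 8.10, 8.59 and 8.87 in KO, against 9.16, 9.03 and 8.98 in WT, a difference of -0.54 (SE 0.18, adjusted p = 0.147, limma). In both, the KO values lay below all WT values and spread more widely, and neither passed the test. Probe sets that the annotation shares between Rpl13a and Snord34 or Snord32a differed by -0.32 and by -0.07, and neither passed when all probe sets were fitted together (adjusted p = 0.552 and 0.747, limma). Of the C/D RNAs that act in precursor cleavage, Snord118 differed by -0.23 (adjusted p = 0.0672, limma) and Snord22 by -0.38 (adjusted p = 0.155, limma), without overlap between the groups in either. The mean level of Snord118, 4.99, lay below background, which limits what its separation can show. The C/D gene with the highest level was Snord57, at 12.21 ± 0.15 in KO and 12.31 ± 0.12 in WT (SD, n = 3 arrays each), and its groups overlapped. The next highest, Snord49b and Snord82, differed by -0.16 (adjusted p = 0.289, limma) and -0.19 (adjusted p = 0.586, limma), also with overlap.

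Snord96a was the only C/D gene with a KO mean above the WT mean. It had 6.08, 6.22 and 6.45 in KO, while all 3 WT arrays had the same value of 5.97, which is no measure of precision. Its difference of 0.28 did not pass (SE 0.09, adjusted p = 0.121, limma), except with array weights (adjusted p = 0.0215), and its level lay below background. It was the 1 gene of the 54 with 3 equal values in a group.

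In the H/ACA class 8 of 20 genes fell and 12 missed the threshold; none rose. The median difference was -0.26, and 19 of 20 differences were below 0. Snora73a and Snora73b, near-identical copies that act in the cleavage of the ribosomal RNA precursor, had 10.94 ± 0.06 and 11.04 ± 0.02 in KO, against 11.20 ± 0.04 and 11.30 ± 0.06 in WT (SD, n = 3 arrays each). Snora73b fell by 0.26 (SE 0.04, adjusted p = 0.0146, limma) and Snora73a by 0.25 (SE 0.04, adjusted p = 0.0189, limma), and whether their probe sets read each other's RNA was not tested. The other 6 called genes are pseudouridylation guides. Snora16a had 10.09, 10.20 and 10.32 in KO, against 10.58, 10.54 and 10.54 in WT (difference -0.36, SE 0.06, adjusted p = 0.0181, limma). Snora23 had 9.08, 9.21 and 9.19 in KO, against 9.59, 9.50 and 9.45 in WT (difference -0.35, SE 0.05, adjusted p = 0.0126, limma). Snora7a had 10.37, 10.50 and 10.46 in KO, against 10.81, 10.67 and 10.68 in WT (difference -0.28, SE 0.05, adjusted p = 0.0308, limma). These 3 genes lay well above background and differed by more than the spread of their arrays.

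The other 3 called H/ACA genes lay nearer to background. Snora75 had 6.91, 6.97 and 7.03 in KO, against 7.38, 7.14 and 7.31 in WT (difference -0.31, adjusted p = 0.0415, limma). Snora20 had 6.01, 6.21 and 6.18 in KO, against 6.74, 6.49 and 6.56 in WT (difference -0.46, adjusted p = 0.0207, limma). Snora30 had 6.45, 6.59 and 6.47 in KO, against 6.80, 6.73 and 6.86 in WT (difference -0.30, adjusted p = 0.0225, limma). The mean levels of Snora20 and Snora30 were below the background of olfactory receptor genes. This limits what the lack of overlap between their KO and WT arrays can show. Snora31 had the largest difference of the class, -0.47 (SE 0.12, adjusted p = 0.0681, limma), with 9.65, 9.96 and 10.08 in KO, against 10.52, 10.28 and 10.28 in WT. It missed the threshold, with a KO SD of 0.22. Snora52 had the highest level of all 54 genes, 12.97 ± 0.03 in KO and 13.05 ± 0.06 in WT (SD, n = 3 arrays each), and a difference of -0.08 that did not pass (adjusted p = 0.348, limma).

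Snora44 was the only H/ACA gene with a KO mean above the WT mean. It had 11.14, 11.14 and 11.15 in KO, against 11.08, 10.98 and 11.00 in WT. Every KO array lay above every WT array, but the difference of 0.12 did not pass (SE 0.04, adjusted p = 0.120, limma). It passed after quantile normalization again (adjusted p = 0.0290), after cyclic loess (0.0324), with a mean-variance trend (0.0428) and with array weights (0.0193).

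The size of the difference varied little with level, and the calls varied more. Among the 18 genes with the lowest levels (4.31 to 7.18) the median difference was -0.28, and 3 of them were called. Among the middle 18 (7.32 to 9.34) it was -0.29 with 3 called, and among the highest 18 (9.41 to 13.01) it was -0.26 with 9 called. The median SE was 0.115, 0.0795 and 0.0501 in these groups, from low to high level. Of the 54 genes, 40 lay above background, with a median difference of -0.27, and 14 lay below it, also with -0.27. Among C/D genes the median was -0.29 above background (22 genes) and -0.24 below it (9 genes), and among H/ACA genes -0.26 (15 genes) and -0.30 (5 genes).

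**Figure D3:**
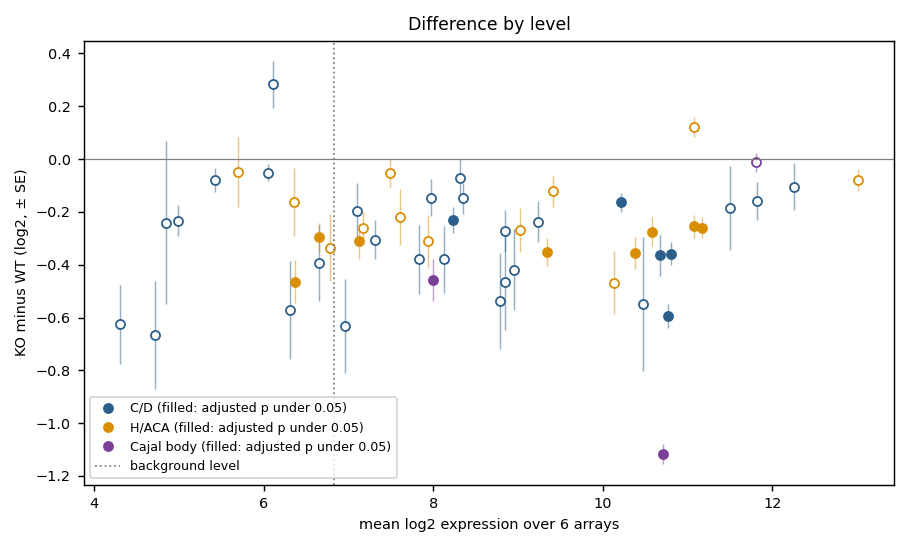
Difference between KO and WT (log2, ± SE of limma) of each of the 54 genes against its mean log2 expression over 6 arrays, coloured by class, filled where the adjusted p was under 0.05, with the background level of 6.83 as a dotted line. Points lie below 0 over the whole range of levels, and the error bars are shorter at high levels.

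Array by array, the small RNAs moved together within a genotype as well as between genotypes. The median deviation of the 54 genes from their 6-array means was -0.25, -0.09 and -0.06 on KO arrays 1, 2 and 3, against 0.23, 0.08 and 0.11 on WT arrays 1, 2 and 3. All 3 KO arrays lay below all 3 WT arrays, and KO replicate 1 and WT replicate 1 lay farthest apart. The C/D class alone gave -0.24, -0.09 and -0.06 in KO, against 0.24, 0.08 and 0.13 in WT, and the H/ACA class gave -0.24, -0.09 and -0.06 in KO, against 0.21, 0.08 and 0.10 in WT. The median deviations of all genes on the same arrays lay between -0.01 and 0.01. KO replicate 1 held the lowest KO value in 46 of the 54 genes, while it did so in 6504 of 19938 genes overall. WT replicate 1 held the highest WT value in 47 of the 54 genes, and in 7332 genes overall. The median SD of the small RNA genes was 0.120 over the KO arrays and 0.0781 over the WT arrays, against 0.0556 and 0.0525 for all genes.

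**Figure D4:**
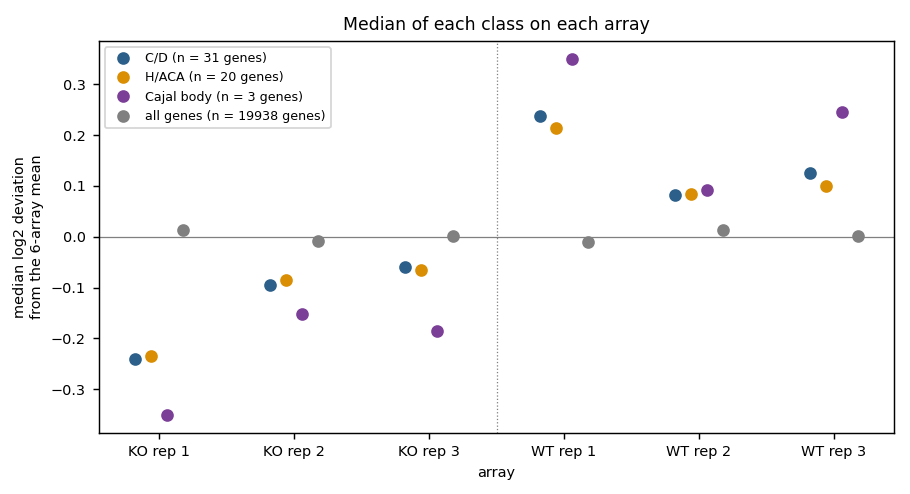
Median log2 deviation from the 6-array mean of the C/D, H/ACA and Cajal body classes and of all genes on each array, KO arrays left of the dotted line and WT arrays right of it. The 3 classes lie below 0 on every KO array and above 0 on every WT array, with KO replicate 1 and WT replicate 1 at the extremes, while all genes stay near 0.

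Calls became fewer with an array left out, among these genes and among all genes. Of the 15 called genes, Scarna13 (adjusted p = 0.00476 to 0.00989) and Snord14e (adjusted p = 0.0134 to 0.0275) passed in each of the 6 fits that left out 1 array, and Snord104 passed in 5 (limma). Snord104 was lost when WT replicate 3 was dropped (adjusted p = 0.0537). Snora23 was lost without KO replicate 3, WT replicate 1 or WT replicate 3 (adjusted p = 0.0526 to 0.0570), and Snora7a was lost in each of the 6 fits (adjusted p = 0.0600 to 0.104). Snora16a and Snora73a held where KO replicate 1 or KO replicate 3 was dropped (otherwise adjusted p = 0.0521 to 0.0921), Snora73b only without WT replicate 1 or WT replicate 2 (otherwise 0.0541 to 0.0612) and Snora30 only without KO replicate 2 or WT replicate 2 (otherwise 0.0782 to 0.107). Scarna8, Snora20, Snora75 and Snord42b held only without WT replicate 2 (otherwise adjusted p = 0.0514 to 0.174), Snord55 only without KO replicate 1 and Snord95 only without KO replicate 2 (otherwise adjusted p = 0.0924 to 0.155). Of the 54 genes, 7, 6 and 8 were called when KO replicate 1, 2 or 3 was dropped, and 4, 11 and 2 when WT replicate 1, 2 or 3 was dropped. The share of all genes called in either direction was 7.31% with all arrays, 4.13%, 4.15% and 3.07% without KO replicate 1, 2 or 3, and 2.48%, 4.67% and 0.948% without WT replicate 1, 2 or 3. When all probe sets of the array were fitted together, 5 of the 15 passed. In each of these 6 fits the KO mean was below the WT mean in 51 or 52 of the 54 genes, with medians between -0.30 and -0.23. With both KO replicate 1 and WT replicate 1 left out, a choice made after seeing the data, 45 of 54 differences were below 0 and the median was -0.19. No gene of the whole array was called by limma in that fit of 2 arrays against 2, where 3569 genes had an unadjusted p under 0.05.

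Where they had a probe set of their own, the genes that hold the small RNAs differed less than the small RNAs did. In the GRCm38.p6 gene table, 53 of the 54 genes lie within the span of another gene, all but Snord118, and 26 of these containing genes had a probe set of their own. The table gives no strand for the small RNAs, so a containing gene is not always the host. None of the 26 containing genes passed the test, beside 7.31% of all genes called in either direction, so with this few genes the count says little. Their median difference was -0.04 (range -0.35 to 0.05), while the 30 small RNA genes inside them had a median of -0.30, with 7 called. These 7 are among the 15 called small RNA genes, and Scarna13 is not in the comparison. The small RNA gene had the lower difference in 28 of 30 pairs, a count that includes pairs with a gene below background. Snord87 lies within both Mcmdc2 and Snhg6, and Mcmdc2 averaged 5.63 in KO and 5.66 in WT, below background. Snord61, Snora20 and Snora30 were themselves below background. The size of the gap in such pairs cannot be read. Across the 30 pairs, which share arrays and in part a containing gene, the differences correlated at a Pearson r of 0.31 and a Spearman rho of 0.19. The constitutive heat shock chaperone gene that holds Snord14e, Hspa8, averaged 13.07 ± 0.04 in KO and 13.10 ± 0.03 in WT (SD, n = 3 arrays each) and differed by -0.03 (adjusted p = 0.749, limma). Tpt1, which holds Snora31, differed by 0.01 (adjusted p = 0.930, limma), and Rpl23a, which holds Snord42b, by -0.01 (adjusted p = 0.935, limma). Several containing genes were far brighter than the small RNA inside, as Tpt1 was (13.80 in KO, against 9.89 for Snora31). Whether level bears on the smaller differences was not tested. Containing genes with larger differences were Rbmx around Snord61 (-0.35, adjusted p = 0.125, limma), Haus6 around Scarna8 (-0.29, adjusted p = 0.0766, limma) and Ipo7, an importin gene, around Snora23 (-0.23, adjusted p = 0.0510, limma). Cytosolic ribosomal protein genes, 61 in all, had a median of -0.02 with 0 called. Among 291 microRNA genes the median was 0.03, with 0 called lower and 6 called higher, beside 3.97% lower and 3.34% higher over all genes. Only 86 of these microRNA genes lay above background, so for most of them a lack of change says little.

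**Figure D5:**
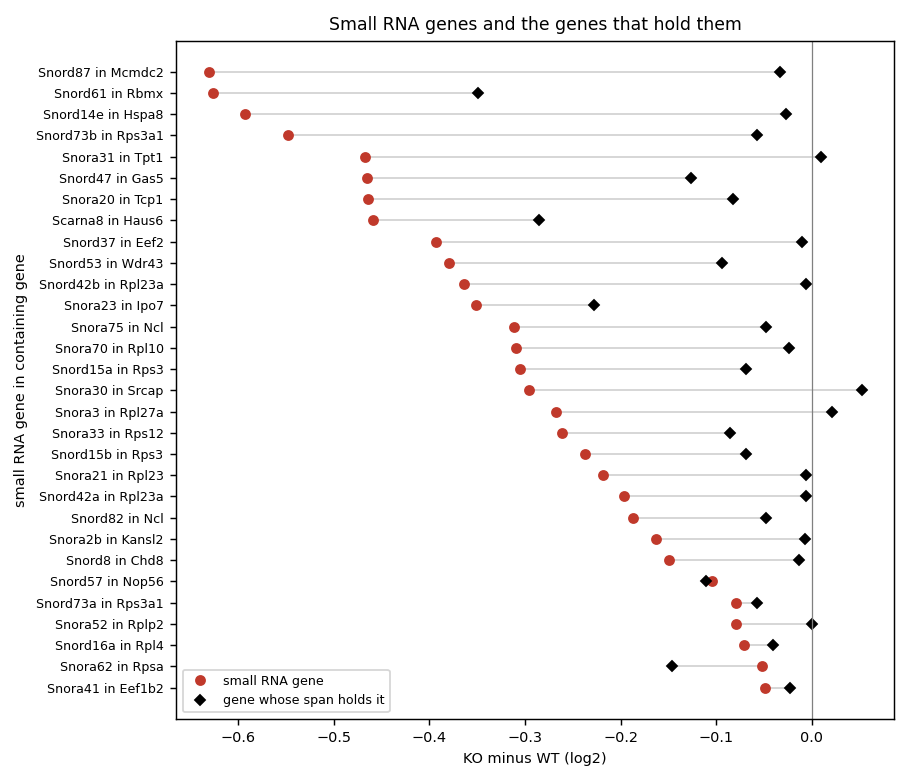
Difference between KO and WT (log2) of 30 small RNA genes (circles) and of the gene whose span holds each (diamonds), ordered by the small RNA gene, with the largest falls at the top. The diamonds gather near 0, between -0.35 and 0.05, and lie right of the circle in 28 of 30 rows, including rows with a gene below background.

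Small RNA genes inside the same gene could be set against each other within each array, in 10 pairs. In the long noncoding RNA gene Snhg12, Snora16a minus Snora44 was -1.05, -0.94 and -0.83 in KO, against -0.50, -0.44 and -0.45 in WT. The gap differed between genotypes by -0.48, without overlap. In Rpl23a the gap between Snord42b and Snord42a differed by -0.17, also without overlap. The gaps in Rack1 (Snord95 and Snord96a) and Rps3a1 (Snord73b and Snord73a) did not overlap either, but Snord96a (mean level 6.11) and Snord73a (5.42) lay below background, so these gaps measure no change between the small RNAs and no size is given. For the pairs in Snhg12 and Rpl23a a two-sided exact permutation test gave p = 0.1, the smallest that 3 arrays against 3 allow, and 0.2 after Benjamini-Hochberg adjustment over the 10 pairs, so neither could pass. In 5 further pairs the values overlapped; the gap between Snora73b and Snora73a in Snhg3 changed by -0.00477 (exact permutation p = 0.9).

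Promoter windows were looked up for the containing genes, and 33 of the 46 had a window in the RefSeq promoter table of GRCm38.p6. Since containing genes were taken by span without strand, whether their promoters drive the small RNAs is not known. Many host genes begin transcription at a run of pyrimidines, the terminal oligopyrimidine tract of genes of the translation machinery. A run of at least 6 bases of C or T, reaching into the stretch from 10 bases before to 15 bases after the annotated start, was found in 20 of the 33 containing genes (60.6%) and in 36.8% of the 27025 genes of the table. Windows from 50 bases before to 50 bases after the start are shown for the containing genes of Scarna13 (Snhg10, chr12:105032230-105032329, minus strand), of Snora16a and Snora44 (Snhg12, chr4:132308628-132308727, plus strand), of Snord95 and Snord96a (Rack1, chr11:48800310-48800409, plus strand), of Snord104 (Gm36220, chr11:106500865-106500964, plus strand) and of Snora73a and Snora73b (Snhg3, chr4:132353637-132353736, minus strand). They cover the largest fall, 2 genes in which a called small RNA lies beside one that was not called, a further called C/D gene and a gene in which both small RNAs fell. The longest such run is in capitals.
Snhg10: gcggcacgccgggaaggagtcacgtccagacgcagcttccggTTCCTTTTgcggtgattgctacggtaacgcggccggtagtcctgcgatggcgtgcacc
Snhg12: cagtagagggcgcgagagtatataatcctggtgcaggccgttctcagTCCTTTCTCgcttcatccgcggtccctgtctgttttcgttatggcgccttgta
Rack1: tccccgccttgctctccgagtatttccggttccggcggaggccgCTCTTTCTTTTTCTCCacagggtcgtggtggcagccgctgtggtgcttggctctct
Gm36220: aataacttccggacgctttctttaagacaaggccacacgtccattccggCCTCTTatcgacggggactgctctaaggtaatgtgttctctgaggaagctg
Snhg3: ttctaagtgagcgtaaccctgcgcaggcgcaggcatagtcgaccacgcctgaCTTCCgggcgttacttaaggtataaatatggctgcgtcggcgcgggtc
The run was 16 bases long in Rack1, 9 in Snhg12, 8 in Snhg10 and 6 in Gm36220, while the longest in Snhg3 had 5 bases and did not count as a run. Snhg10, Snhg12, Rack1, Gm36220 and Snhg3 are named by no probe set with a single symbol, and their transcripts were not analysed here.

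Genes of the proteins that build and mature these RNAs were examined alongside. Of 30 measured genes of snoRNP proteins, assembly factors and Cajal body proteins, 2 rose, 0 fell and 28 did not pass. Over all genes 7.31% were called in either direction, a share close to that of this list. Exosc10, the nuclear exosome ribonuclease that trims precursors of snoRNAs, had 10.29 ± 0.05 in KO and 10.08 ± 0.00 in WT (SD, n = 3 arrays each; the 3 WT values were tied), a rise of 0.21 (adjusted p = 0.0209, limma). Ruvbl2, a helicase-like ATPase of snoRNP assembly, rose by 0.19 (adjusted p = 0.0272, limma). Its WT values were nearly equal as well, at 9.39, 9.39 and 9.40, which is no measure of precision. Both genes passed without KO replicate 2 (adjusted p = 0.0302 and 0.0348, limma), and neither passed without any other single array (adjusted p = 0.0601 to 0.120). Fibrillarin, Fbl, had 9.27 ± 0.05 in KO and 9.20 ± 0.01 in WT (SD, n = 3 arrays each; difference 0.07, adjusted p = 0.373, limma). Dyskerin, Dkc1, differed by -0.12 (adjusted p = 0.334, limma), and its partner in H/ACA particles Nop10 by -0.17 (adjusted p = 0.0522, limma). The Cajal body scaffold gene Coil differed by 0.02 (adjusted p = 0.863, limma) and Wrap53, which brings RNAs to the Cajal body, by -0.04 (adjusted p = 0.525, limma).

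Other short structured RNAs differed less uniformly. The Y RNA gene Rny3 fell by 0.34 (adjusted p = 0.00663, limma), and Rny1 differed by -0.24 (adjusted p = 0.517, limma). Rnu3a, of the U3 RNA that acts in ribosomal RNA cleavage, differed by -0.32 (adjusted p = 0.179, limma), with all KO values below all WT values. U3 is itself a C/D box snoRNA, but its symbol put it outside the 54, and the gene table types it as snRNA. Rmrp, the RNA of a ribosomal RNA processing nuclease, differed by -0.15 (adjusted p = 0.0522, limma). Rn7sk, the RNA that restrains transcription elongation, differed by -0.02 (adjusted p = 0.806, limma), Rpph1, the RNA of the transfer RNA processing enzyme RNase P, by 0.09 (adjusted p = 0.230, limma), and the telomerase RNA Terc by 0.14 (adjusted p = 0.0673, limma). While 7.31% of all genes were called in either direction, Rny3 alone passed the test among all 18 other short RNA genes measured. They include 4 that the gene table types as snoRNA under other names and that are outside the 54: DQ267102 differed by -0.14, Gm12238 by -0.08, DQ267101 by -0.03 and AF357341 by 0.01, and none passed (adjusted p = 0.220 to 0.926, limma). Of these 4, Gm12238 lay above background. RNA was extracted with a QIAGEN mini kit, per the labels; how well it retained short RNAs in each extract, and whether a probe set reads the mature small RNA or the surrounding intron, was not tested.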

How the data were processed

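The deposited table holds log2 expression values of 35556 probe sets on 6 single-colour arrays. The submitters' processing notes name RMA, Partek and Affymetrix Expression Console, with neither versions nor roles. The label protocols give 6 µg of total RNA as the input to biotin labelling. Array medians ran from 7.19 to 7.23, so values are relative to the other genes of an array. Arrays give no read depth, and their number limits the precision.

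Of the probe sets, 21789 carry 1 gene symbol in the platform table, 1621 carry several and 12146 carry none. Symbols, which may be outdated there, were renewed by gene ID from a GRCm38.p6 gene table (21698 found). The small RNA genes drew on 60 probe sets. Those with several symbols entered no count: outside the Snord116 cluster 17 of them include a small RNA name (15 distinct, median difference -0.32, 3 called), and 24 belong to that cluster (7 distinct, -0.05, 0 called, levels 6.17 to 6.25). The gene table lists no strand, so containing genes were taken by span. KO was compared with WT by lmFit and eBayes of limma 3.58.1 in R 4.3.3, two-sided, over all 19938 genes, without covariates or a filter on dim genes. On simulated data for this comparison (19938 genes), 80% of 100 changes of 0.5 and 97% of 100 changes of 1 on the log2 scale were recovered. The changed genes were drawn from all genes, with noise independent between genes. The small RNA genes had wider median SDs (0.120 in KO and 0.0781 in WT, against 0.0556 and 0.0525) and moved together by array. Changes near their median of -0.27 were not simulated, so these shares need not hold for them. Exact permutation tests used scipy 1.17.1. Replicate numbers are shared by the genotypes in the labels, and whether they pair the samples was checked by the correlation of deviations from the group means.

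The genes described are all Cajal body genes, all called C/D and H/ACA genes, the 3 largest differences in each direction and the 3 highest levels of each class, genes that share a containing gene with a called one, and called machinery genes. Members, lists and rules were chosen with earlier results of these data known. Snord33, Snord35a, Snord118, Snord22, Snord73a, Snord73b, Mki67 and the other short RNA genes were added after their values were seen. The alternatives were other normalizations, filters, probe set rules, variance models, array weights, a replicate block and fits without 1 array. Of the 10 pairs of small RNA genes within a shared gene, 1 is not reported here.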

Additional observations from a re-analysis of the deposited data

How the results depend on the processing

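Class medians kept their sign in every alternative run. The replicate numbers gave correlations of deviations of -0.299, -0.262 and -0.0151 for numbers 1, 2 and 3. None was positive, but 3 arrays per group cannot tell whether the numbers mark a shared preparation. With the replicate block, calls in all genes were 30 higher and 22 lower. In that fit 0 C/D, 0 H/ACA and 1 Cajal body gene were lower and 0 machinery genes were higher. When all probe sets were fitted together, 325 genes were called higher and 329 lower, with 2 C/D, 2 H/ACA and 1 Cajal body gene lower and 0 machinery genes higher. Above background alone, 1227 genes were called lower, with 8 C/D genes and 1 machinery gene lower. With a mean-variance trend 1255 genes were called lower, with 1 H/ACA gene higher and 1 machinery gene lower. With array weights, which put 7.41 on WT replicate 3 and 0.524 to 1.19 on the others, 1604 genes were called higher and 1814 lower, with 1 C/D and 1 H/ACA gene higher, 9 C/D genes lower and 3 machinery genes lower. Quantile normalization again and cyclic loess each called 1 H/ACA gene higher and turned Scarna17 to 0.0366 and 0.0341. In fits without 1 array, calls were 109 to 434 higher and 80 to 524 lower in all genes, 1 to 4 lower in C/D, 0 to 5 lower in H/ACA, 1 to 2 lower in Cajal body genes and 0 to 2 higher in machinery; Scarna17 ran from -0.0272 to 0.0113 and the Cajal body median from -0.528 to -0.398. Without KO replicate 1 and WT replicate 1, added after seeing the data, 0 genes were called in any class or among all genes, and the Cajal body median was -0.338; over all fits without arrays Snord57 ran from -0.180 to 0.0146 and Snord82 from -0.326 to 0.0600. The cause of these shifts was not tested. Background at the 90th or 99th percentile put 43 or 33 genes above it. Signal near background limits Snord38a, Snord61 and other dim genes.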
